A study of Mus musculus with 10 samples.

Results

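The genes described here encode plasma membrane and lysosomal carriers of amino acids, taken from 6 solute carrier families (SLC1, SLC6, SLC7, SLC36, SLC38 and SLC43) by their symbols, with the cystine carrier gene Slc7a11 left out. They are 61 of the 19938 genes tested. The pattern of the symbols is wider than amino acids: it takes in monoamine carriers (Slc6a2, Slc6a3 and Slc6a4), a creatine carrier (Slc6a8), a purine base carrier (Slc43a3) and 2 genes named for lying on the opposite strand of a carrier gene (Slc6a19os and Slc7a6os), so 59 members are carrier genes by name. Slc7a11 itself fell from a mean log2 value of 10.93 to 8.22 and is given only for contrast.

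RNA of mouse granulosa cells was read on whole-transcript microarrays. These are the somatic cells that line the ovarian follicle. The 5 PRKO pools came from mice with a lacZ insertion in both alleles of the progesterone receptor gene Pgr, and the 5 PR+/- pools from mice with the insertion in 1 allele, so no pool was free of the insertion. The insertion is not restricted to granulosa cells, and each pool joined cells of 3 prepubertal animals. The mice, aged 21 to 23 days, had received equine chorionic gonadotropin (eCG, 5 IU), which makes follicles grow, and after a further 44 to 47 h human chorionic gonadotropin (hCG, 5 IU), which sets off ovulation. Cells were released from antral follicles at 8 h after hCG. The comparison asks which transcripts differ when the receptor is missing during the ovulatory response.

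Amino acid carriers work in a few modes. Many sodium-coupled carriers of SLC1, SLC6 and SLC38 build up amino acids inside the cell. Exchangers, among them Slc1a4, Slc1a5 and the light chains of SLC7, trade one amino acid for another across the membrane. The carriers Slc36a1, Slc36a4 and Slc38a9 act largely at the lysosome, where amino acid supply is read by mTORC1, the growth-controlling kinase complex. Most SLC7 exchangers are light chains that reach the membrane only when joined to a heavy chain, chiefly the protein of Slc3a2. In the mouse follicle, granulosa and cumulus cells pass amino acids on to the oocyte through gap junctions, since the oocyte takes up some of them poorly by itself.

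All values are the deposited expression values, whose log2 scale was read from the values themselves. Differences are PRKO minus PR+/- on that scale, with the standard error (SE) of limma, a linear model with moderated variances. A gene was said to rise, fall or pass when its p, adjusted over all genes by the Benjamini-Hochberg method, was under 0.05. Array medians lay between 6.48 and 6.55 and the number of pools limits the precision. Probe sets differ in affinity, so their values do not rank the abundance of different genes. Background was set at 5.86, the 95th percentile of 1027 olfactory receptor genes. The Pgr probe set read 6.07 to 7.70 in PR+/- and 6.15 to 6.90 in PRKO, and where its probes lie relative to the insertion is unknown here, so it does not check the labels. None of 35 measured markers of other cell types (theca and interstitial, endothelial, leukocyte, red blood cell, oocyte) passed in limma, with 2 at an unadjusted p under 0.05 and 0 by exact permutation, and 9 of the 35 were dim in both genotypes. Each list's mean level overlapped between genotypes: theca and interstitial 8.04 to 8.57 in PR+/- and 7.95 to 8.86 in PRKO, endothelial 6.53 to 6.92 and 6.52 to 7.08, leukocyte 5.63 to 5.78 and 5.49 to 5.76, and oocyte 7.81 to 8.43 and 7.78 to 8.56. The 1 measured red blood cell gene ranged from 7.16 to 8.15 and from 7.56 to 8.65. By sign, 9 of 9 oocyte, 8 of 10 leukocyte, 6 of 7 endothelial and 2 of 8 theca and interstitial markers were lower in PRKO. The median difference of the oocyte markers was -0.12. Of the 35 markers together, 25 lay below 0 and 10 above, beside 11000 of all 19938 genes below 0. Of 7 granulosa cell markers none passed in limma, with 6 of them (85.7%, beside 13.0% of all genes) at an unadjusted p under 0.05, 5 higher and 1 lower, and 4 by exact permutation. The pools did not overlap in Inha, an inhibin subunit gene (difference 0.24, SE 0.08), and the lower one was Fshr, the receptor gene of follicle-stimulating hormone (-0.49, SE 0.22). Their mean ran from 10.35 to 10.71 in PR+/- and from 10.28 to 11.07 in PRKO.

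Of the 61 members, 1 differed between the genotypes, and it fell: Slc7a4, a member of the cationic amino acid transporter branch of SLC7 by sequence. That is 1.64% of the members, beside 2.46% of all genes tested (1.71% lower and 0.752% higher in PRKO). No member rose in limma, where 7 members (11.5%, 3 lower and 4 higher) had an unadjusted p under 0.05 beside 13.0% of all genes. An exact permutation test over the 10 pools gave an unadjusted p under 0.05 for 6 members, beside 12.7% of all genes. The median difference of the members was -0.04, beside -0.02 over all genes tested, and 40 of 61 members lay below 0, beside 11000 of all 19938 genes. Of the 40, 16 were among the 20 members whose signal was at background (below), and 24 were among the other 41. Among all genes above background in a genotype, 6385 of 13430 lay below 0. The median difference was -0.04 over the 41 members and 0.01 over those 13430 genes.

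**Figure D1:**
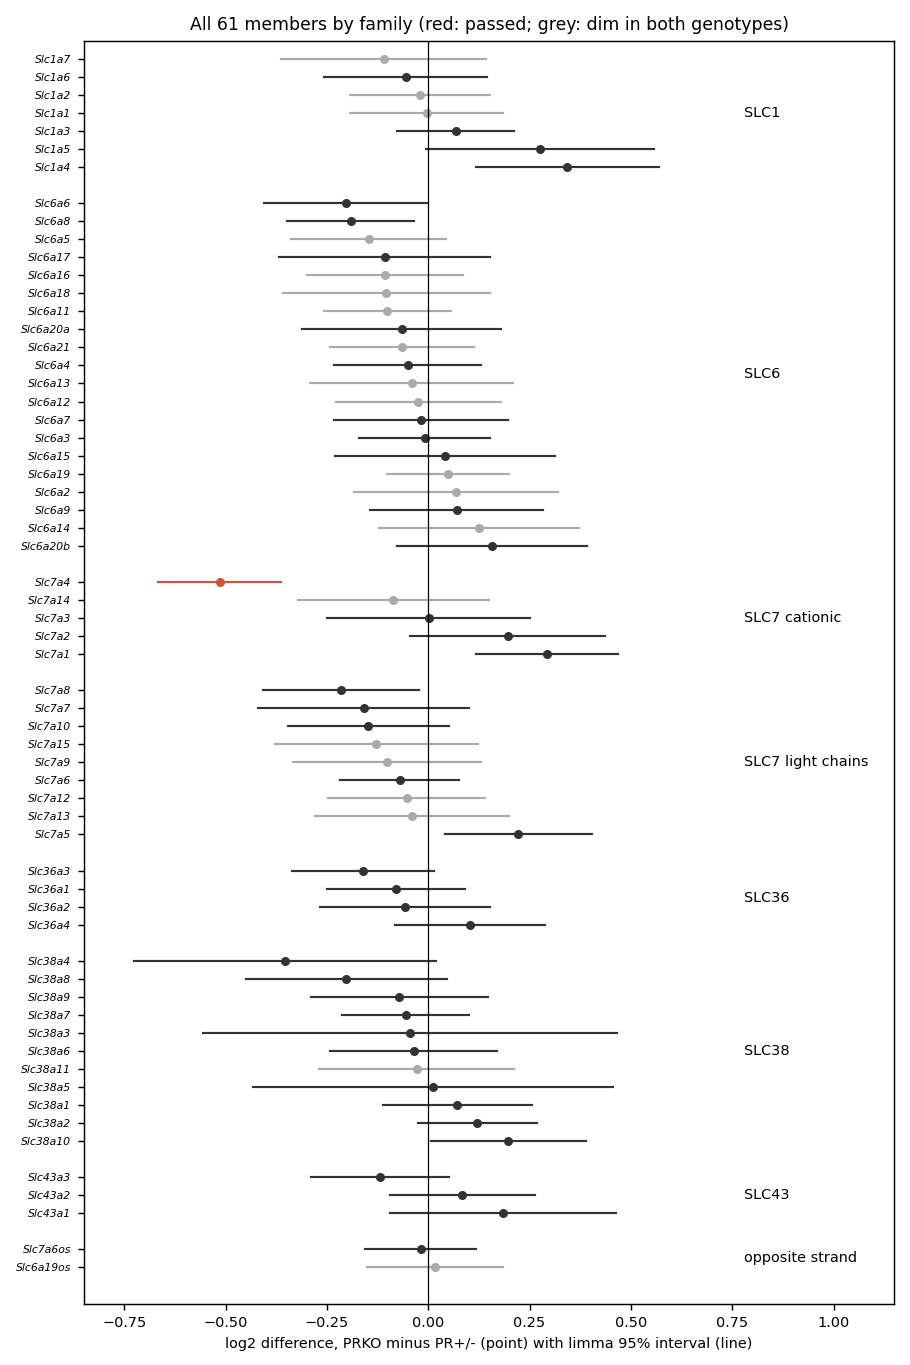
Log2 difference, PRKO minus PR+/-, of each of the 61 members (point) with its 95% interval from limma (line), grouped by carrier family and ordered within each family. Slc7a4, in red at -0.51, is the 1 member that passed, and grey marks the 20 members dim in both genotypes.

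For most members the data bounded the difference closely. In 59 of 61 the 95% interval of limma lay inside a 1.5-fold change in either direction, and in all 61 inside a 2-fold change. Of all 19938 genes, 18999 lay inside 1.5-fold and 19763 inside 2-fold, so the members were bounded much like genes in general. The exceptions among the members at 1.5-fold were Slc7a4 (-0.67 to -0.36) and Slc38a4 (-0.73 to 0.02). Of the members, 20 were dim, with means under background in both genotypes, 1 (Slc1a3, a glutamate carrier) was dim in PR+/- alone, and 40 were above background in both. Of all 19938 genes, 6508 were dim in both genotypes. A log2 difference near background understates a true one, so the bounds of the 20 dim members hold for the signal and not for the transcript.

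**Figure D2:**
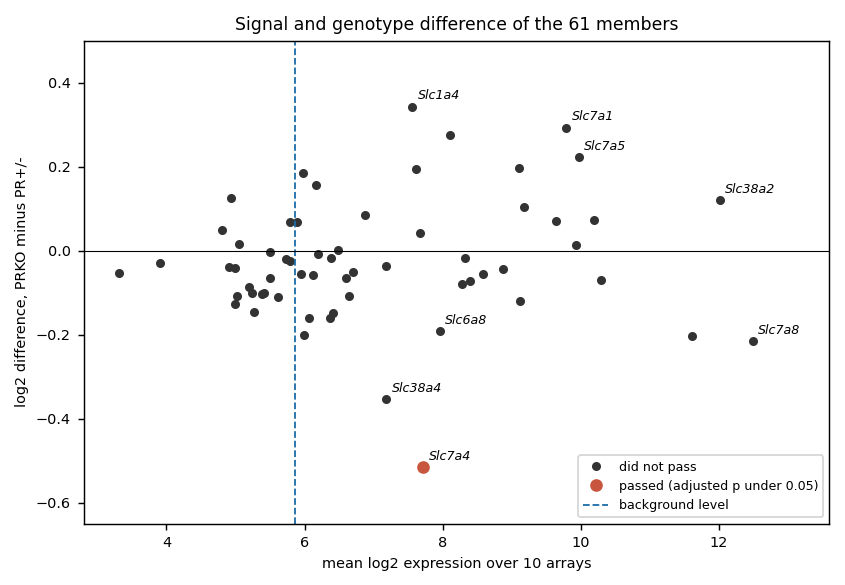
Mean log2 expression over 10 arrays (horizontal) against the log2 difference, PRKO minus PR+/- (vertical), for the 61 members, with the background level of 5.86 as a dashed line. Differences lie between -0.51 (Slc7a4) and 0.34 (Slc1a4), and the brightest probe sets, of Slc7a8 and Slc38a2, stand at -0.22 and 0.12.

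The cationic branch of SLC7 moves arginine, lysine and ornithine, and its 5 members held both the 1 call and the next smallest p. The 2 genes went in opposite directions, 1 lower and 1 higher in PRKO, and the median difference of the branch was 0.00. They were the 2 of 5 members (40%) at an unadjusted p under 0.05 in limma, beside 13.0% of all genes. Slc7a4, the branch member whose own transport activity has not been established, read 7.98, 7.85, 8.04, 8.03 and 7.99 in PR+/- pools 1 to 5. In PRKO pools 1 to 5 it read 7.39, 7.55, 7.53, 7.53 and 7.32. Every PRKO pool was below every PR+/- pool, a separation seen in 1 of 61 members and, in either direction, in 4.42% of all genes. PR+/- pools averaged 7.98 ± 0.07 (SD, n = 5) and PRKO pools 7.46 ± 0.10 (SD, n = 5), which gives a log2 difference of -0.51 (SE 0.07, limma adjusted p = 0.000647), or 1.43-fold lower. In all 20 other fits of the data it passed, with adjusted p up to 0.00464. Slc7a4 had only 1 probe set, so the fits with all probe sets or with probe set means used the same values for it. In bulk pools, less RNA per cell and fewer cells that carry the transcript cannot be told apart. Of the 7 granulosa markers, 5 leaned higher and 1 lower in PRKO at an unadjusted p under 0.05 (above). All 9 oocyte markers lay below 0, with 0 of them at an unadjusted p under 0.05 in limma. The part of either list in the Slc7a4 difference was not tested.

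The 3 genes whose values ran closest to Slc7a4 over the 10 arrays were Gas7 (Pearson r = 0.983), Actn3, a muscle-type actinin gene (0.980), and Egfr, the epidermal growth factor receptor gene (0.978). These correlations describe 10 arrays that share the split between genotypes. Gas7 fell by 1.76, Actn3 by 0.96 and Egfr by 0.91 on the log2 scale, each by more than Slc7a4.

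Slc7a1, the main arginine importer of many cells, leaned the other way without passing. It read 9.73, 9.50, 9.87, 9.52 and 9.59 in PR+/- pools 1 to 5 and 9.91, 10.04, 9.88, 9.99 and 9.85 in PRKO. The groups overlapped only in that PRKO pool 5 lay just under PR+/- pool 3. The log2 difference was 0.29 (SE 0.08, limma adjusted p = 0.0877), and it passed in 3 of 20 other fits, with adjusted p between 0.0244 and 0.230 over them: with array weights, without PR+/- pool 3 (difference 0.35, adjusted p = 0.0319), and without PR+/- pool 3 and PRKO pool 3 together. Slc7a2, an arginine carrier that can be induced in macrophages, differed by 0.20 (SE 0.11), Slc7a3 by 0.00 (SE 0.12), and Slc7a14, dim in both genotypes, by -0.09 (SE 0.11).

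**Figure D3:**
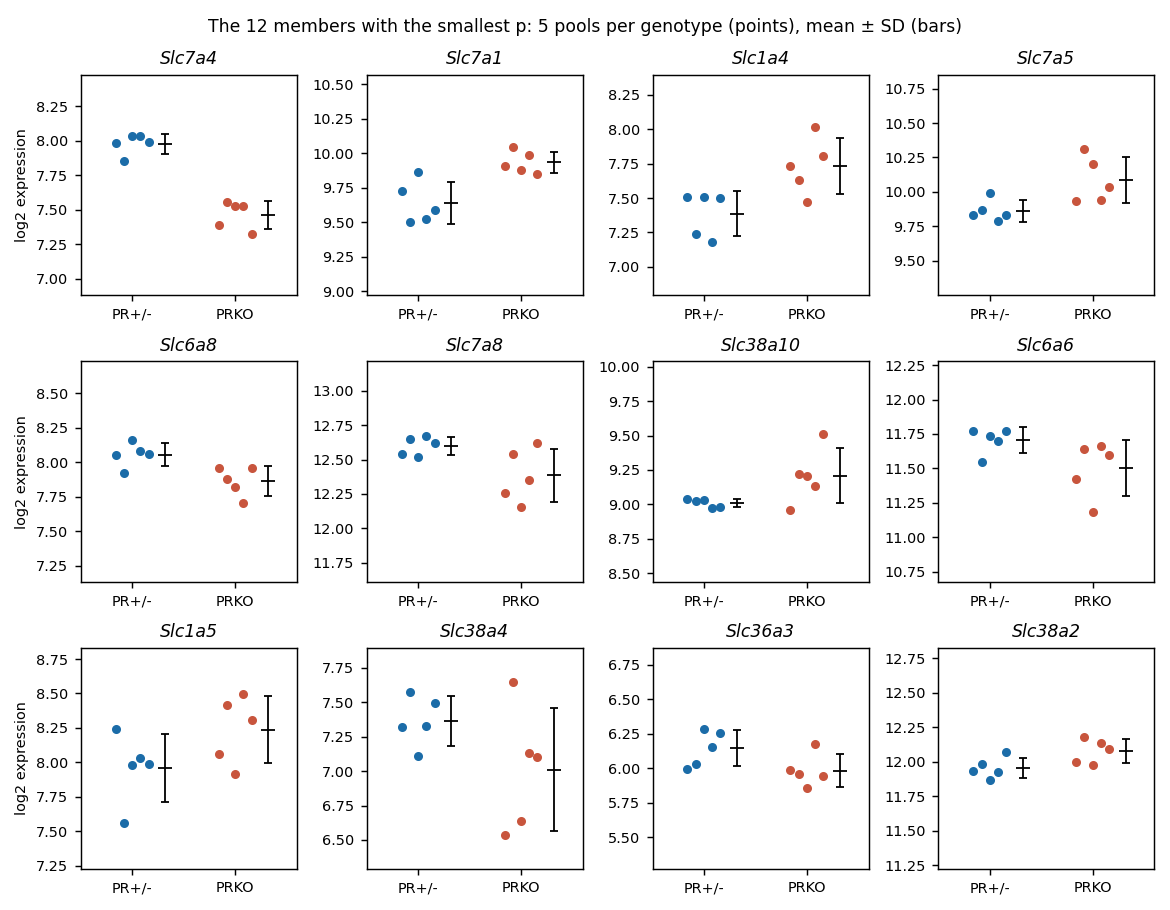
Log2 expression in each of the 5 PR+/- and 5 PRKO pools (points) with the mean and SD (bars) for the 12 members with the smallest p, each panel spanning 1.6 log2 units. The genotypes separate fully in Slc7a4 and overlap in the other 11.

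The RefSeq table of promoters (build GRCm38.p6) held a window for 44 of the 61 members, Slc7a4 not among them. The sequences of Slc7a1 and Slc1a4 are shown because they had the next smallest p. Each is the 250 bases before an annotated start, read 5′ to 3′ on the minus strand, with any TGTTCT in capitals. This hexamer, read as AGAACA on the opposite strand, is one that progesterone and glucocorticoid receptors bind. The Slc7a1 windows lie at chr5:148399905-148400154 (outer start) and chr5:148392816-148393065 (inner start), and that of Slc1a4 at chr11:20332714-20332963.
Slc7a1 outer start: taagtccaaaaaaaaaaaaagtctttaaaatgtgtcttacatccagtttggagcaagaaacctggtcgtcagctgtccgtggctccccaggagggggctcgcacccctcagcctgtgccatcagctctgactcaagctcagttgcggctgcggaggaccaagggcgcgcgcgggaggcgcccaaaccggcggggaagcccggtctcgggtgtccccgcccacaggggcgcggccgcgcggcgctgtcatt
Slc7a1 inner start: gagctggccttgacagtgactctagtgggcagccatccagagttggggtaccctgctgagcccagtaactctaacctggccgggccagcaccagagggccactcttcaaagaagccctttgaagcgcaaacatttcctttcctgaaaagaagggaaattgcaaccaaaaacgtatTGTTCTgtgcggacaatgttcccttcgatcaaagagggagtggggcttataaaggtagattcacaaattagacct
Slc1a4: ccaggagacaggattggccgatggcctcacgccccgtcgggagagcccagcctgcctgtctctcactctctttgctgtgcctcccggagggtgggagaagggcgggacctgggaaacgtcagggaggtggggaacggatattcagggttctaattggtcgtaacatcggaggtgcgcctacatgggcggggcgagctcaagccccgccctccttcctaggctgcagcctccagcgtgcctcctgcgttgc
The inner window of Slc7a1 held 1 hexamer, its first base 75 bases before the start, and the other 2 windows held none. Searched on both strands, the hexamer was found in 12.31% of the 65 windows of members and in 16.08% of all 32851 windows. TGATGNAA, the core of the element through which the transcription factor ATF4 answers amino acid shortage, was found in 4.62% of members' windows and 3.45% of all windows, and in none of the 3 printed. A match describes letters in a window and not a binding site.

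SLC1 holds glutamate carriers and the exchangers of small neutral amino acids. None of its 7 members passed in limma (1 at an unadjusted p under 0.05, 1 by exact permutation), and the median difference was 0.00. The exchangers Slc1a4 and Slc1a5 had the largest values. Slc1a4, which trades alanine, serine and cysteine, read 7.50, 7.24, 7.51, 7.18 and 7.50 in PR+/- pools 1 to 5 and 7.74, 7.63, 7.47, 8.01 and 7.80 in PRKO. Of the PRKO pools, 4 lay above all PR+/- pools and pool 3 lay within them. The difference was 0.34 (SE 0.11, limma adjusted p = 0.136), and it passed in none of 20 other fits (lowest adjusted p = 0.0541). Slc1a5, the glutamine exchanger, read 8.24, 7.56, 7.98, 8.03 and 7.99 in PR+/- and 8.06, 8.41, 7.92, 8.49 and 8.31 in PRKO, a difference of 0.28 (SE 0.13, adjusted p = 0.397), with 3 PRKO pools above all controls and 2 among them. The glutamate carriers Slc1a1, Slc1a2, Slc1a6 and Slc1a7 lay between -0.11 and 0.00 and Slc1a3 at 0.07, at or near background.

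Light chains of the heteromeric exchangers are known for leucine, glutamine and cationic amino acid exchange. Of 9 members none passed in limma (2 at an unadjusted p under 0.05, 1 by exact permutation), with a median difference of -0.10. The paralogs Slc7a5 and Slc7a8, both carriers of large neutral amino acids, had opposite signs. Slc7a5 read 9.83, 9.87, 9.99, 9.79 and 9.83 in PR+/- and 9.93, 10.31, 10.20, 9.94 and 10.04 in PRKO, a difference of 0.22 (SE 0.08, adjusted p = 0.262). Slc7a8 read 12.54, 12.65, 12.52, 12.67 and 12.62 in PR+/- and 12.26, 12.54, 12.15, 12.35 and 12.62 in PRKO, a difference of -0.22 (SE 0.09, adjusted p = 0.318). In Slc7a5, 3 PRKO pools lay above all controls, and in Slc7a8, 3 lay below them. Neither passed in any of the 20 other fits. Slc7a6, which exchanges cationic for neutral amino acids, read 10.34, 10.34, 10.25, 10.30 and 10.39 in PR+/- and 10.13, 10.41, 10.27, 10.20 and 10.28 in PRKO, with overlapping groups. It stood at -0.07 (SE 0.07) and its close relative Slc7a7 at -0.16 (SE 0.12). Slc7a10, a carrier of small neutral amino acids including D-serine, stood at -0.15 (SE 0.09), and Slc7a9, Slc7a12, Slc7a13 and Slc7a15 were dim in both genotypes.

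The heavy chain gene Slc3a2 was bright and close between the genotypes. It read 12.59, 12.46, 12.52, 12.56 and 12.54 in PR+/- pools and 12.46, 12.48, 12.29, 12.50 and 12.63 in PRKO, a difference of -0.06 (SE 0.07, limma adjusted p = 0.777). Slc3a1, the heavy chain of the kidney cystine carrier, was dim in both genotypes (difference 0.03, SE 0.08). Slc7a11 joins the same heavy chain as Slc7a5 and Slc7a8. It fell from 10.88 to 11.05 over the PR+/- pools to 7.93 to 8.62 over the PRKO pools, a log2 difference of -2.71 (SE 0.12).

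SLC38 carriers take up small neutral amino acids such as glutamine and alanine. Of 11 members none passed in limma (1 at an unadjusted p under 0.05, 1 by exact permutation), with a median difference of -0.04. Slc38a2, the carrier whose activity rises when amino acids run short, read 11.87 to 12.07 in PR+/- (median 11.93) and 11.98 to 12.18 in PRKO (median 12.09), with 3 PRKO pools above all controls, a difference of 0.12 (SE 0.07, adjusted p = 0.502). Slc38a10 read 9.04, 9.03, 9.03, 8.97 and 8.98 in PR+/- and 8.96, 9.22, 9.21, 9.13 and 9.51 in PRKO, a difference of 0.20 (SE 0.09, adjusted p = 0.365). Its controls were nearly level and its PRKO pools spread widely, 4 of them above all controls and 1 below. Slc38a1, a glutamine and alanine carrier, read 10.11, 10.38, 10.14, 10.10 and 10.03 in PR+/- and 10.18, 10.44, 10.26, 10.10 and 10.14 in PRKO, also overlapping. It had 2 probe sets, and fitted with all probe sets they gave 0.07 (SE 0.09) and 0.13 (SE 0.15). Those of Slc38a9, the arginine sensor of the lysosome, gave -0.07 (SE 0.11) and -0.16 (SE 0.08).

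The widest spread between pools within a genotype was in 3 SLC38 carriers. The SD pooled over genotypes was 0.48 in Slc38a3, 0.41 in Slc38a5 and 0.34 in Slc38a4, beside a median of 0.16 over the 61 members and 0.14 over all genes. Slc38a3 and Slc38a5 carry glutamine, histidine and asparagine, and mouse cumulus cells are known for Slc38a3 expression promoted by the oocyte. Slc38a3 read 8.61, 9.66, 9.13, 8.51 and 8.57 in PR+/- pools 1 to 5 and 8.86, 9.12, 9.30, 8.08 and 8.90 in PRKO. Slc38a5 read 9.69, 10.66, 9.68, 9.89 and 9.74 in PR+/- and 9.87, 10.36, 10.38, 9.51 and 9.60 in PRKO. Both were highest in PR+/- pool 2 among the controls, both were higher in PRKO pools 2 and 3 than in the other PRKO pools, and both were lowest in PRKO pool 4. Their differences between genotypes were -0.04 (SE 0.24, 95% interval -0.56 to 0.47) and 0.01 (SE 0.21, -0.43 to 0.46). With 5 pools per genotype, differences inside these intervals were not excluded. The mean of 9 oocyte markers was 7.98, 8.43, 8.39, 8.03 and 7.81 in PR+/- pools 1 to 5 and 7.80, 8.56, 7.91, 7.78 and 7.96 in PRKO, and the mean of the 7 granulosa markers was 10.35, 10.71, 10.38, 10.56 and 10.40 and 10.68, 10.91, 11.07, 10.28 and 10.59. PR+/- pool 2 was also the highest control for both marker lists. PRKO pool 4 was the lowest of its genotype for both, in the oocyte list by little (7.78, beside 7.80 in pool 1). Other pools differed. PRKO pool 3 was the highest of its genotype for both carriers and the granulosa list, but its oocyte mean was 7.91, beside 8.56 in PRKO pool 2. PR+/- pool 3 had an oocyte mean of 8.39, while its Slc38a5 value of 9.68 was the lowest control. The part of either list in the spread of Slc38a3 and Slc38a5 was not tested.

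**Figure D4:**
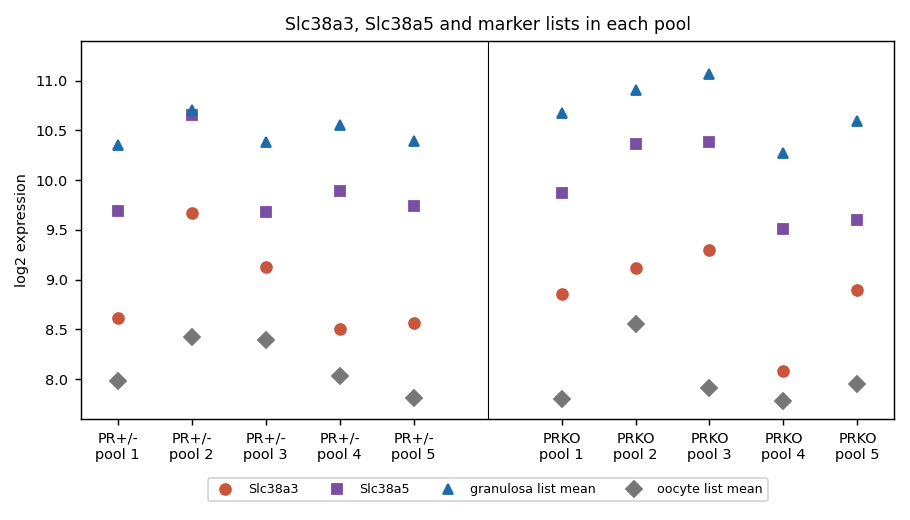
Log2 expression of Slc38a3 and Slc38a5 and the mean log2 level of the granulosa and oocyte marker lists in each pool, with PR+/- on the left and PRKO on the right. Slc38a3 runs from 8.08 in PRKO pool 4 to 9.66 in PR+/- pool 2, and Slc38a5 from 9.51 to 10.66 in those same pools.

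Slc38a4, a sodium-coupled carrier of neutral and cationic amino acids, read 7.32, 7.58, 7.11, 7.33 and 7.49 in PR+/- pools and 6.53, 7.65, 6.64, 7.13 and 7.10 in PRKO. PRKO pools 1 and 3 lay well below all controls and pool 5 just below them, while pool 2 was above all of them. The difference was -0.35 (SE 0.17, limma adjusted p = 0.415), and it passed in none of the 20 other fits (lowest adjusted p = 0.0894). Slc38a1, Slc38a2 and Slc38a4 are neighbours on chromosome 15, and their differences of 0.07, 0.12 and -0.35 did not share a sign.

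The SLC6 family couples uptake to sodium and chloride and holds carriers of taurine, glycine, creatine and transmitters. Of 20 measured members none passed in limma (1 at an unadjusted p under 0.05, 1 by exact permutation), and 10 were dim in both genotypes. The median difference was -0.05. Slc6a6, the taurine carrier, read 11.77, 11.55, 11.74, 11.70 and 11.77 in PR+/- and 11.43, 11.64, 11.18, 11.67 and 11.60 in PRKO, a difference of -0.20 (SE 0.09, adjusted p = 0.385). Slc6a8, the creatine carrier, read 8.05, 7.92, 8.16, 8.08 and 8.06 in PR+/- and 7.96, 7.88, 7.82, 7.70 and 7.96 in PRKO, a difference of -0.19 (SE 0.07, adjusted p = 0.263). The groups overlapped in both, with 3 of 5 PRKO pools below all controls in Slc6a8 and 2 of 5 in Slc6a6. Slc6a9, the glycine carrier GlyT1, which mouse oocytes and follicle cells use, stood at 0.07 (SE 0.10), and Slc6a15, a carrier of branched-chain amino acids and proline, at 0.04 (SE 0.13). The proline carrier Slc6a7 stood at -0.02 and the monoamine carriers Slc6a3 and Slc6a4 at -0.01 and -0.05, with Slc6a2 dim in both genotypes.

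Proton-coupled SLC36 carriers and facilitated SLC43 carriers gave no call. None of the 4 SLC36 members and none of the 3 SLC43 members had an unadjusted p under 0.05 in limma or by exact permutation. Slc36a3 averaged 6.15 ± 0.13 in PR+/- and 5.98 ± 0.12 in PRKO (SD, n = 5), close to background and with 4 PRKO pools just below all controls, a difference of -0.16 (SE 0.08, limma adjusted p = 0.434). Slc36a1 and Slc36a4, the lysosomal members of the family, stood at -0.08 (SE 0.08) and 0.10 (SE 0.09). In SLC43, the large neutral amino acid carriers Slc43a1 and Slc43a2 stood at 0.18 (SE 0.13) and 0.08 (SE 0.08) and the purine base carrier Slc43a3 at -0.12 (SE 0.08).

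Among the protein-coding genes of the RefSeq table, some members lie side by side on a chromosome. There were 11 pairs of neighbours, with 0 to 2 protein-coding genes between them. Slc7a4, on chromosome 16, was in none of the pairs, so only values are given for them. In the SLC36 cluster on chromosome 11, Slc36a3, Slc36a2 and Slc36a1 stood at -0.16, -0.06 and -0.08. Slc43a1 and Slc43a3 on chromosome 2 stood at 0.18 and -0.12, and the paralogs Slc6a20b and Slc6a20a on chromosome 9 at 0.16 and -0.07.

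Among genes that work with the carriers, 1 fell (Ddit4) and 1 rose (Atp1b1) of 83 measured. That is 2.41%, beside 2.46% of all genes, and 16.9% had an unadjusted p under 0.05, beside 13.0% of all genes. Of 22 measured partners and other carriers (heavy chains, mitochondrial, vesicular, lysosomal and peptide carriers) none passed in limma (4 at an unadjusted p under 0.05, 3 by exact permutation), with a median difference of 0.02. Among 30 measured genes of amino acid sensing upstream of mTORC1, none passed in limma (4 at an unadjusted p under 0.05, 5 by exact permutation), with a median of 0.01. Of 29 measured genes of ATF4 and the amino acid shortage response, 1 fell, Ddit4, whose product restrains mTORC1 and which also answers glucocorticoids (-0.87, SE 0.14, limma adjusted p = 0.00200), and none rose (3 by exact permutation, 4 at an unadjusted p under 0.05). Ddit4 read 9.94, 9.90, 9.88, 10.19 and 10.12 in PR+/- and 8.81, 8.99, 9.31, 8.93 and 9.63 in PRKO, all PRKO pools below all controls. The list's median was 0.03.

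Sodium-coupled carriers draw on the gradient kept by the sodium potassium pump. Of its 3 measured subunit genes 1 rose, Atp1b1, a beta subunit. It read 7.99, 8.06, 7.67, 7.57 and 7.82 in PR+/- and 8.10, 8.32, 8.25, 8.25 and 8.18 in PRKO, so all PRKO pools lay above all controls. The difference was 0.40 (SE 0.09, limma adjusted p = 0.0396). That call was lost without any 1 of 8 pools, all but PR+/- pools 1 and 2 (adjusted p up to 0.106).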

How the data were processed

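The members and gene lists were chosen with earlier results of these data known. The authors deposited log2 expression values of 35557 probe sets for 10 arrays, 1 per pool. Labelling used the Affymetrix Whole-Transcript kit per the labels' protocols, and the submitters' processing notes name Partek. The sources used here do not give the background correction or normalization behind the values. Of the probe sets, 21789 carried 1 symbol, and the brightest per gene was kept, leaving 19938 genes. No probe set with several symbols named a member.

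PRKO was compared with PR+/- by limma 3.58.1 in R 4.3.3 (5 pools each, no block, two-sided), with p adjusted over all genes. Exact permutation used all 252 splits of the pools, the smallest possible p being 0.00794. The fit was also run on simulated data with independent noise, in which shifts shared by many genes of a pool were not simulated. Every member may be named; pool values or their summary are given for the 12 with the smallest p and the 8 brightest, and partner genes are named if they passed, with Slc3a1 and Slc3a2. Slc38a3 was added for its spread after its values were seen. Other settings changed the normalization (quantile, or centring on medians), the genes kept (no dim genes, all probe sets, probe set means), the fit (intensity trend, robust prior, weights per array, replicate number as block), the thresholds, and the pools, each left out in turn. A fit without the array of each genotype that correlated least with the rest (PR+/- pool 3 and PRKO pool 3) was added after the data were seen.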

Additional observations from a re-analysis of the deposited data

Results flagged for a closer look

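In 7 of 122 groups of 5 pools (61 members in each genotype), 1 pool stood apart from the other 4 by Dixon's test. Chance alone gives about 1 in 20 groups, so this number is near what chance gives. Slc38a5, the glutamine carrier described above, was high in PR+/- pool 2 at 10.66, where the other controls read 9.68 to 9.89. Of members dim in both genotypes, PR+/- pool 1 was low for Slc1a1 (5.20) and Slc1a2 (5.51), PRKO pool 5 was low for Slc1a2 (5.55), PRKO pool 3 was high for Slc6a14 (5.43), and PR+/- pool 2 was low for Slc6a19 (4.59). PRKO pool 5 was also low for the dopamine carrier gene Slc6a3, at 5.98. None of these members passed.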

How the results depend on the processing

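Slc7a4 was the 1 member that fell in all 20 other fits, with differences between -0.55 and -0.48. The labels do not say that pool numbers pair the genotypes. Deviations of same-numbered pools correlated at 0.17, 0.22, 0.32, -0.10 and -0.05 for numbers 1 to 5, and for 2 of the 5 the own number was the best match, which does not settle whether they are paired. With the replicate number as a block the count of members lower was again 1 and of members higher 0, the block changed no call of a member, and 529 of all genes passed, beside 491 without it. Asking for a fold of at least 1.5 left 0 members lower. Exact permutation at an unadjusted p under 0.05, a looser rule, gave 2 lower and 4 higher. The count of members higher was 1 (Slc7a1) with array weights and without PR+/- pool 3 and PRKO pool 3 (the least correlated arrays), and 0 to 1 when single pools were left out, 1 being without PR+/- pool 3. Of the 83 measured genes of the partner, sensing, shortage and pump lists, 2 passed (Ddit4 and Atp1b1). The count was 1 to 2 without single pools, and 1 with all probe sets, without the least correlated arrays, at a fold of 1.5 and at an adjusted p under 0.01. The cause was not tested. In 19 of 61 members (among them Slc38a3, Slc38a5, Slc6a9, Slc6a15 and Slc7a3) the difference changed sign in at least 1 of 20 fits. All had a size of 0.125 or less in the main fit, so no direction is read from any of them alone. The count of 40 of 61 members below 0 takes in their signs as well. The median over members lay between -0.07 and -0.01 in the 20 fits. With 20 members at background, smaller changes in these were not detectable.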

Other observations

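Pools differed within a genotype in how many members lay above that genotype's mean. In PR+/- pool 3, 47 of 61 members did, with a median deviation of 0.10, and in PRKO pool 1, 20 of 61 did, with a median deviation of -0.07. The median absolute deviation in PR+/- pool 3 was 0.12 over the members and 0.11 over all genes, and in PRKO pool 1 it was 0.08 and 0.07. Absolute deviations carry no direction, and the signed deviation over all genes was not computed. Whether these shifts are particular to the members was therefore not tested.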
